A study of Mus musculus with 6 samples.

Results

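The Schlafen family was described in RNA-seq of 3 Dnmt3b+/- peripheral T-cell lymphomas (PTCL), over 7 genes named Slfn1, Slfn2, Slfn3, Slfn4, Slfn5, Slfn8 and Slfn9. The members were taken by gene symbol from a table of 34245 genes, and all 7 were found. The tumors arose in FVB mice that carry an inactivated allele of the DNA methyltransferase Dnmt3b in the germline, and RNA was isolated from lymph nodes of mice that had become terminally sick. The ages of these mice are not given in the sources used here. Labels call the 3 tumors independent samples, and no control T-cells or tumors of another genotype were analysed here. Values are FPKM, in which fragment numbers are divided by exon length and by sequencing depth, so they can be compared between genes. Tumors 1, 2 and 3 had a recovered depth of 30726570, 18969988 and 20770928 reads.

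Schlafen proteins are a family of mammals whose genes lie in a cluster. The mouse proteins fall into a short, an intermediate and a long form, and the long form adds a helicase-like domain. Several members are induced by type I interferon, some bind or cleave tRNA, and the family is best known in T-cells for its link to quiescence, since mice with a defective Slfn2 lose resting T-cells.

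The tumors differed in markers of cells other than T-cells. These values stand before the Schlafen genes because some lists had their highest sum in tumor 2, as the Schlafen genes did. The Schlafen sum was lowest in tumor 1, as was the NK cell sum, while the pancreatic and stromal sums were lowest in tumor 3. All 10 T-cell markers were above 0.2 FPKM in every tumor, and they summed to 1382, 998 and 1468 FPKM in tumors 1, 2 and 3, the lowest sum being that of tumor 2. The most abundant was Cd8b1, with 435, 166 and 443 FPKM. Not every marker followed the sum, and tumor 2 was highest for 4 of the 10, among them Lck with 160, 208 and 207 FPKM. That share was near the 35.3% of all genes with a mean of at least 0.2 FPKM. The list's median log2 ratio of FPKM + 0.1 was -0.01 for tumor 2 to tumor 1 and -0.54 for tumor 2 to tumor 3. Tumor 2 was highest for 8 of the 9 pancreas and epithelium markers with a mean of at least 0.2 FPKM, and for 35.3% of all genes with such a mean. All 10 markers of that list summed to 84.7, 389 and 1.52 FPKM, led by the pancreatic protease Ctrb1 with 33.9 and 198 FPKM in tumors 1 and 2 and no read in tumor 3. Markers of stroma and endothelium summed to 19.5, 52.6 and 5.45 FPKM, and tumor 2 was highest for 6 of 8. The most abundant, Pecam1, was highest in tumor 1, with 12.2, 10.9 and 4.86 FPKM, as was Kdr.

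Macrophage and monocyte markers summed to 272, 92.3 and 33.7 FPKM, led by Lyz2, and 7 of 8 were highest in tumor 1, as were 49.8% of the 14733 genes with a mean of at least 0.2 FPKM. B-cell markers summed to 61.3, 14.7 and 110 FPKM, led by Cd79a. For all 7 found, both other tumors had at least 2 times the FPKM of tumor 2, where 6.01% of the 14733 genes did. Neutrophil markers summed to 39.3, 1.59 and 17.0 FPKM, led by S100a9, with tumor 1 highest for 4 of the 5 with a mean of at least 0.2 FPKM, and Elane had no read in any tumor. Tumor 2 was thus the tumor with the most pancreatic and stromal RNA and the least B-cell and neutrophil RNA. Dendritic cell markers summed to 82.4, 40.4 and 58.2 FPKM, with tumor 1 highest for 5 of 8, near the share of all genes, mostly from Ccr7, which T-cells also express and which the T-cell quiescence list holds too. NK cell markers summed to 21.03, 78.2 and 48.6 FPKM, led by Eomes, which CD8+ T-cells also express, and Klre1 had 0.242, 32.2 and 0.0551 FPKM. Erythroid and platelet markers summed to 132, 29.3 and 3.80 FPKM, led by Hba-a1, with tumor 1 highest for 4 of the 5 with a mean of at least 0.2 FPKM and no read for Ppbp and Gp9 in any tumor. In bulk RNA, fewer cells of a type and less RNA per cell cannot be told apart, and the part of these cells in the values below was not tested.

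All 7 Schlafen genes were above 0.2 FPKM in every tumor, where 36.7% of all genes were. Most of the Schlafen RNA came from the short members. The 7 genes summed to 201, 355 and 277 FPKM in tumors 1, 2 and 3, on average 278 ± 77.1 (SD, n = 3). Slfn1 and Slfn2 together held 83.9%, 69.4% and 80.6% of these sums. Tumor 2 had the highest sum and the smallest share from these 2 genes.

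**Figure D1:**
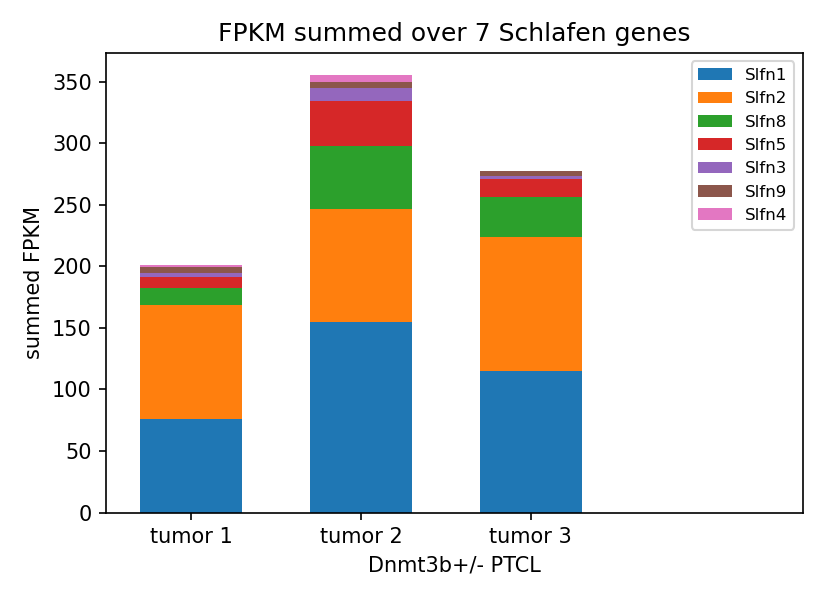
FPKM summed over the 7 Schlafen genes (vertical axis) in each of the 3 Dnmt3b+/- PTCL (bars), with each gene as a segment. The bars reach 201, 355 and 277 FPKM, and Slfn1 and Slfn2 fill most of each.

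Among the short members, Slfn1 (ENSMUSG00000078763, chromosome 11 of mm10 from 83116849 to 83122670, plus strand) slows the growth of thymocytes when overexpressed. Tumors 1, 2 and 3 had 76.3, 155 and 115 FPKM of Slfn1, on average 115 ± 39.2 (SD, n = 3). Tumor 2 was 2.03 times tumor 1 (95% counting interval 1.95 to 2.11) and 1.34 times tumor 3. Slfn1 had the highest mean of the family, and 98.5% of the 14733 genes with a mean of at least 0.2 FPKM lay below it.

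Slfn2 (ENSMUSG00000072620, chromosome 11 from 83065112 to 83070678, plus strand) keeps T-cells quiescent and protects tRNA from cleavage. It had 92.5, 92.1 and 108 FPKM in the same order of tumors, on average 97.6 ± 9.17 (SD, n = 3). Its highest tumor was 1.17 times the lowest, the smallest such ratio in the family except under median-of-ratios factors, where it was 1.33 and that of Slfn9 was 1.29. As deposited, 6.68% of the 14733 genes had a smaller ratio. Tumors 1 and 2 did not differ beyond counting error, with a ratio of 0.995 (95% interval 0.9501 to 1.04), and their order turned with the scaling, with a ratio of 1.11 under median-of-ratios factors. The intervals on recovered reads cover counting error only, not the variation between mice.

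Slfn3 and Slfn4 are the intermediate members. Slfn3 (ENSMUSG00000018986, chromosome 11 from 83191330 to 83215154, plus strand) had 2.89, 10.1 and 2.37 FPKM, on average 5.12 ± 4.32 (SD, n = 3). Tumor 2 stood above both others, at 3.50 times tumor 1 and 4.26 times tumor 3, and without it the mean was 2.63 FPKM.

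Slfn4 (ENSMUSG00000000204, chromosome 11 from 83175186 to 83190216, plus strand) is known from activated macrophages and other myeloid cells. It had the lowest mean of the family, with 1.52, 6.14 and 0.243 FPKM and an average of 2.64 ± 3.10 (SD, n = 3). The tumor 3 value rests on 20 reads, with a 95% interval of 0.148 to 0.375 FPKM that reaches below 0.2. Tumor 2 was 4.04 times tumor 1 (3.40 to 4.82) and 25.3 times tumor 3 (16.2 to 41.8), and without tumor 2 the mean was 0.881 FPKM. No other Schlafen gene spread as far, and 95.4% of the 14733 genes had a smaller ratio of highest to lowest. Slfn4 and the macrophage markers had different tumors on top: Lyz2 had 215, 33.1 and 20.3 FPKM and Csf1r had 20.7, 3.72 and 2.36 FPKM in tumors 1, 2 and 3, against tumor 2 for Slfn4. Cd68 was the single macrophage marker with its highest value in tumor 2, at 19.6, 51.2 and 9.27 FPKM, the same order of tumors as Slfn4. The part of myeloid cells in the values of Slfn4 was not tested.

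The starts of the short and the intermediate members share a stretch of letters, shown because these 4 genes include those with the highest mean and with the widest range of the family. The RefSeq promoters of GRCm38.p6, from 250 bases before a gene's start to 50 after, were matched for all 7 members. The RefSeq start lay 29 bases before the gene start given above for Slfn1 and matched it for Slfn2, Slfn3 and Slfn4. Each of the 4 held ACTTCCTGG on the given strand, between 74 and 42 bases before its start. Of 32851 promoters of 300 bases, 0.843% held it on either strand, but the letters were chosen after these promoters had been seen. The stretches are printed 5′ to 3′ on the strand of the gene, with the shared letters in capitals, and all 4 are on the plus strand.
Slfn1, chr11:83116716-83116784: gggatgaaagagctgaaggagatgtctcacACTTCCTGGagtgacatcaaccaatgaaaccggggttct
Slfn2, chr11:83065027-83065095: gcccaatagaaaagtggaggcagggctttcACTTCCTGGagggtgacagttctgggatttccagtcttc
Slfn3, chr11:83191258-83191326: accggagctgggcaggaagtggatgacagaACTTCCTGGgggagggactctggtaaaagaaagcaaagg
Slfn4, chr11:83175083-83175151: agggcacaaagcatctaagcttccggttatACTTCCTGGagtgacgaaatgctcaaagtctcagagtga
These letters stood both before Slfn2, with its 1.17-fold range, and before Slfn4, with its 25.3-fold range. Whether they bear on these values was not tested.

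**Figure D2:**
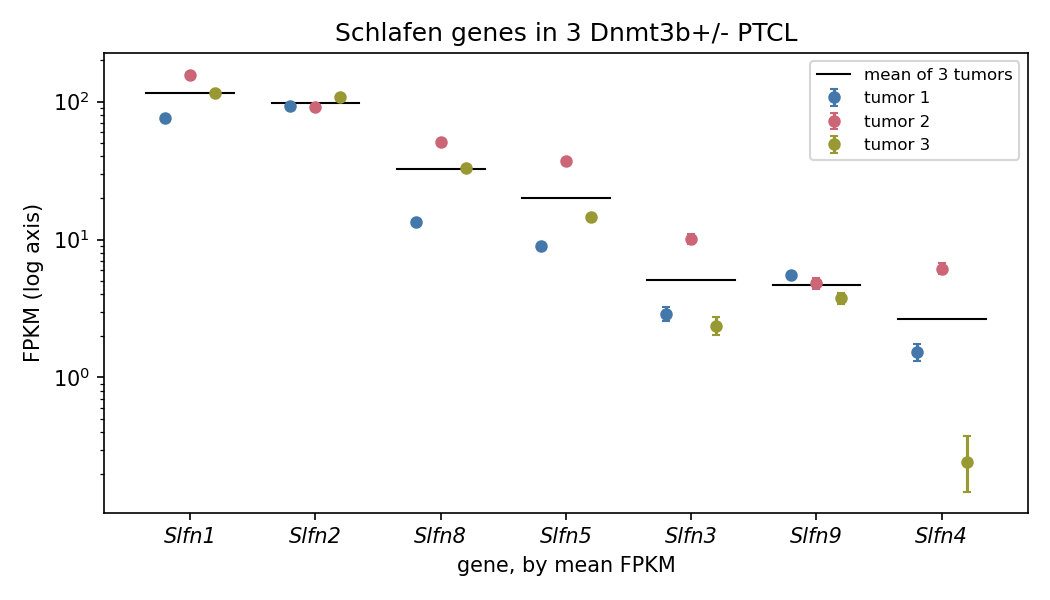
FPKM on a log axis of each Schlafen gene (horizontal axis, by mean) in tumors 1, 2 and 3 (points), with 95% counting intervals (bars) and the mean of the 3 tumors (lines). Tumor 2 is the top point for Slfn1, Slfn8, Slfn5, Slfn3 and Slfn4, while the points of Slfn2 lie between 92.1 and 108 FPKM.

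Slfn5, Slfn8 and Slfn9 are the long members. Slfn5 (ENSMUSG00000054404, chromosome 11 from 82951349 to 82964840, plus strand) is a nuclear member that interferon induces. Tumors 1, 2 and 3 had 9.003, 36.9 and 14.5 FPKM of Slfn5, on average 20.1 ± 14.8 (SD, n = 3). Tumor 2 was 4.09 times tumor 1 (95% interval 3.87 to 4.33) and 2.54 times tumor 3 (2.41 to 2.68), and without tumor 2 the mean was 11.8 FPKM. An antisense gene, Slfn5os, had 3.54, 19.3 and 5.77 FPKM and the same order of tumors. Exons of Slfn5os cover 8.84% of the exonic bases of Slfn5, and exons of Slfn5 cover 50.7% of those of Slfn5os. The strand of the counted reads is not stated in the sources used here, so reads on these bases cannot be told apart between both genes.

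Slfn8 (ENSMUSG00000035208, chromosome 11 from 83002158 to 83020810, minus strand) had 13.5, 50.8 and 33.0 FPKM, on average 32.4 ± 18.7 (SD, n = 3). Tumor 2 was 3.77 times tumor 1 and 1.54 times tumor 3, and tumor 3 was 2.45 times tumor 1 (95% interval 2.31 to 2.61). Its low value was thus in tumor 1 and not shared by tumor 3.

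Slfn9 (ENSMUSG00000069793, chromosome 11 from 82978390 to 82991830, minus strand) lies next to Slfn8, with the same orientation. It had 5.49, 4.80 and 3.74 FPKM, on average 4.68 ± 0.885 (SD, n = 3). As deposited, it was the only Schlafen gene with its highest value in tumor 1. The FPKM of Slfn8 was 2.45, 10.6 and 8.83 times that of Slfn9 in tumors 1, 2 and 3.

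Promoters of the long members are shown because Slfn8 and Slfn9 have similar starts and unlike values. Their promoters were identical at 80.8% of the aligned positions, against 53.0% or less for every other pair of members. The core of the interferon-stimulated response element was searched as GAAANNGAA on both strands of the 300 bases, and 8.56% of the 32851 promoters held it. Slfn5, Slfn8 and Slfn9 were the 3 members with a match. The related Slfn14, which had no read in any tumor, held a match 197 bases before its start. The promoter of Slfn5 held 2 matches, which began 155 and 132 bases before the start. In Slfn8 the match began 47 bases before the start and in Slfn9 44 bases before it, and Slfn8 has a further RefSeq start from which the same match lies 135 bases away. The gamma-activated site, searched as TTCNNNGAA, was in 8.30% of promoters and in none of the members. A match is a description of letters, and the sequences are those of the reference and not of the FVB strain. The RefSeq start of Slfn5 lay 753 bases inside the gene as placed above, and for Slfn8 and Slfn9 it matched the gene's start. The stretch around both matches of Slfn5, on the plus strand, and the 250 bases before the starts of Slfn8 and Slfn9, on the minus strand, are printed 5′ to 3′ on the strand of the gene, with the response element core in capitals.
Slfn5, chr11:82951917-82952008: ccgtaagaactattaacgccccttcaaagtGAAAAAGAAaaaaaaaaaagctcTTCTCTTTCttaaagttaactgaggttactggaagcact
Slfn8, chr11:83020811-83021060: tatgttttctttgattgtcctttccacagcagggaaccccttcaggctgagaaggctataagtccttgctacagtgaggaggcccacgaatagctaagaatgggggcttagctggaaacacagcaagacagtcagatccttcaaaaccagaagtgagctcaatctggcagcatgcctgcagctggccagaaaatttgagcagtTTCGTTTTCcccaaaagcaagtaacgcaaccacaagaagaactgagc
Slfn9, chr11:82991831-82992080: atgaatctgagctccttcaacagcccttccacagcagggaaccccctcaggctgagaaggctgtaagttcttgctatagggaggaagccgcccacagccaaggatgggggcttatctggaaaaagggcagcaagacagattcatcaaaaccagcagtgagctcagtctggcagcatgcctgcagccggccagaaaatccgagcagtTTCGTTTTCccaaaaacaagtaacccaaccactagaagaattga
The same 9 letters, TTCGTTTTC, were matched in Slfn8, where tumor 2 was 3.77 times tumor 1, and in Slfn9, where it was 0.873 times tumor 1. Whether the match bears on these values was not tested. These 300 bases held from 2 CpG in Slfn2 to 7 in Slfn4, with 6 in Slfn1, Slfn5 and Slfn9, and the median over all promoters was 7. Methylation of these promoters was not analysed here.

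Near-identical copies could take reads from a Schlafen gene, since the authors kept reads by their mapping quality. No stretch of 150 bases, the length of a read, was shared between transcripts of different members. For Slfn9, 1.46% of such stretches were also in the pseudogene Slfn10-ps, and for Slfn3 1.29% were also in Gm11427. For Slfn5 it was 5.46%, all in the overlapping Slfn5os. Copies that differ in single bases were not counted.

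By mean FPKM the order was Slfn1, Slfn2, Slfn8, Slfn5, Slfn3, Slfn9 and Slfn4. Slfn2 and Slfn8 were the only neighbours in this order whose tumors did not overlap. Slfn1 was above Slfn2 in 2 of 3 tumors, by 17.9 ± 40.5 FPKM (SD of the differences, n = 3), and Slfn3 was above Slfn9 in 1 of 3, by 0.447 ± 4.26 FPKM. Neither pair differed beyond its spread, nor did Slfn9 and Slfn4, with 2.04 ± 2.94 FPKM. Slfn8 exceeded Slfn5 in all 3 tumors, by 12.3 ± 7.17 FPKM, and Slfn5 exceeded Slfn3 in all 3, by 15.0 ± 10.6 FPKM. An exact paired permutation test over 3 tumors cannot give a two-sided p below 0.25, so none was used. Without tumor 2 the places of 3 genes were unchanged, with Slfn2 then above Slfn1, at 100.3 against 95.8 FPKM, and Slfn9 above Slfn3.

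Of the 7 genes, 5 had a highest tumor of at least 2 times the lowest, where 43.4% of the 14733 genes did. These were Slfn1, Slfn3, Slfn4, Slfn5 and Slfn8. The median ratio of highest to lowest was 3.77 over the Schlafen genes and 1.83 over the 14733 genes. Slfn1 was close to the threshold, and after rescaling to a sum of 1000000 FPKM in every tumor its ratio was 1.85 and 4 genes passed, where 47.8% of the 14733 genes did. The count was 2 without tumor 2 (Slfn4 and Slfn8), 3 without tumor 1 and 5 without tumor 3. A ratio over 2 tumors cannot exceed that over all 3, and the share of all genes over 2 tumors is not given here. Whether the lower counts are particular to the members was thus not tested.

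**Figure D3:**
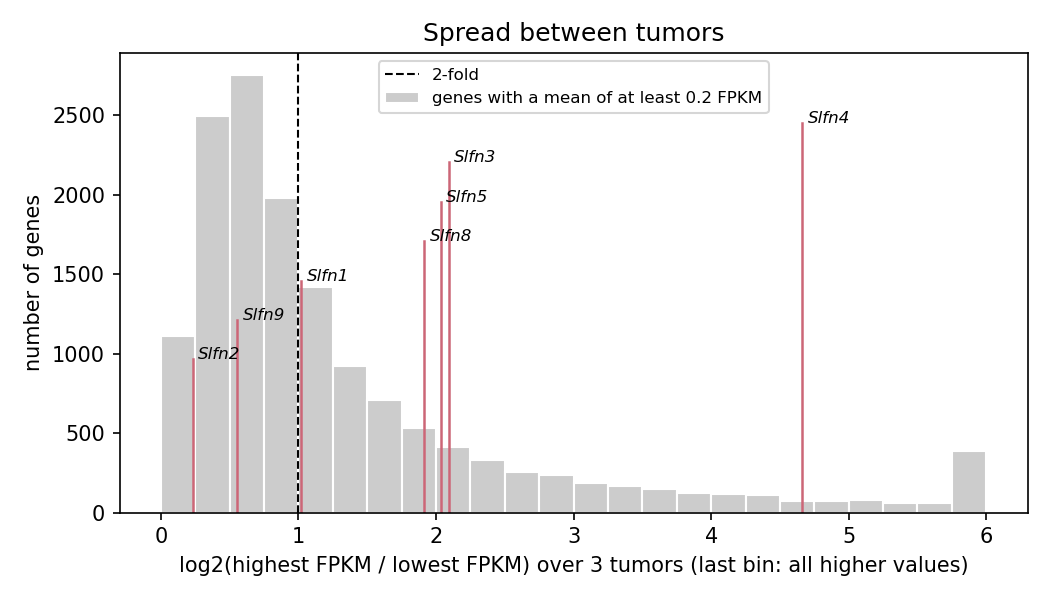
Number of genes (vertical axis) by log2 of the highest over the lowest FPKM of the 3 tumors (horizontal axis), for genes with a mean of at least 0.2 FPKM, with the Schlafen genes as lines whose height has no meaning. Slfn2 and Slfn9 lie left of the 2-fold line, and Slfn4 lies at 25.3-fold.

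Tumor 2 was the highest for 5 Schlafen genes, where it was the highest for 35.3% of the 14733 genes. Tumor 1 was the highest for 1 Schlafen gene, Slfn9, against 49.8% of genes, and tumor 3 for 1, Slfn2, against 15.0%. The place of Slfn2 depends on the scaling, since its highest tumor was tumor 1 when FPKM were rescaled to sum to 1000000. In 3 genes, Slfn3, Slfn4 and Slfn5, tumor 2 reached 2 times both others, where 7.93% of the 14733 genes did. Tumor 2 stayed above both others for Slfn1, Slfn3, Slfn4, Slfn5 and Slfn8 under both other scalings. Without tumor 2, tumor 3 was the higher for 4 members and tumor 1 for 3, and without tumor 3, tumor 1 was the higher for 2. The shares above are for 3 tumors, and those of all genes for these pairs are not given. By the medians below, the middle of the 14733 genes was higher in tumor 1 than in either other tumor.

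Over the Schlafen genes the median log2 ratio of FPKM + 0.1 was 1.77 for tumor 2 to tumor 1, 0.62 for tumor 2 to tumor 3 and -0.23 for tumor 1 to tumor 3. Over the 14733 genes the same medians were -0.18, 0.10 and 0.28. The Schlafen genes as a list therefore stood higher in tumor 2 than the middle of all genes, most against tumor 1. Rescaling to a sum of 1000000 moved the medians of all genes to -0.31, 0.22 and 0.53, and those of the Schlafen genes to 1.67, 0.73 and 0.02. The sign for tumor 1 to tumor 3 turned with the scaling, which moved all genes alike, while the Schlafen median less the median of all genes was -0.50 as deposited and -0.51 rescaled.

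Since several Schlafen genes are interferon targets, the interferon pathway was set beside them. Of 9 interferon genes found, Ifng had the highest mean, with 8.49, 1.10 and 1.12 FPKM. Type I interferon genes had few reads: Ifna4 had 13 reads in tumor 2 and Ifna1 had 8, and neither had a read in tumors 1 and 3. Of the 9 receptors and transducers listed, 7 were highest in tumor 2, where 35.3% of the 14733 genes were. Ifnar2, a chain of the type I receptor, had 19.1, 42.1 and 25.2 FPKM, and the transducer Stat2 had 12.5, 31.3 and 8.11 FPKM. The exceptions were Ifngr2, highest in tumor 1, and Jak1, highest in tumor 3. Among 9 regulators, 5 were highest in tumor 2, a share nearer to that of all genes. Irf7, which amplifies the type I response, had 16.8, 132 and 36.7 FPKM. Irf1, next to it by mean, had 50.4, 76.5 and 57.0 FPKM. For Irf2, Irf3 and Irf5 the highest tumor was 1.19, 1.19 and 1.36 times the lowest. The inhibitor Usp18 had 7.05, 81.5 and 30.4 FPKM, while Socs3 had its lowest value in tumor 2, with 99.999, 14.3 and 47.8 FPKM.

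Tumor 2 was the highest for 35 of the 39 genes of the interferon response list and for 5 of the 7 Schlafen genes, beside 35.3% of the 14733 genes. The list's median log2 ratio was 1.44 for tumor 2 to tumor 1, 1.10 for tumor 2 to tumor 3 and -0.25 for tumor 1 to tumor 3. In 18 of the 39 genes tumor 2 reached 2 times both others, beside 7.93% of the 14733 genes. The most abundant, Bst2, which tethers viruses to the cell surface, had 53.4, 459 and 138 FPKM. Of the next genes by mean, the proteasome subunit Psmb8 had 124, 166 and 145 FPKM and Lgals3bp had 96.6, 187 and 115 FPKM. The 4 genes highest in another tumor, named after their values were seen, were Ifitm3, Gbp2 and Gbp3 in tumor 1 and Ifi47 in tumor 3. Slfn1, Slfn3, Slfn4, Slfn5 and Slfn8 thus had the same highest tumor as most of the list, and Slfn2 and Slfn9 did not. Most pancreatic and stromal markers, though not Pecam1, Kdr and the epithelial Cdh1, were also highest in tumor 2, and their part in this was not tested.

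**Figure D4:**
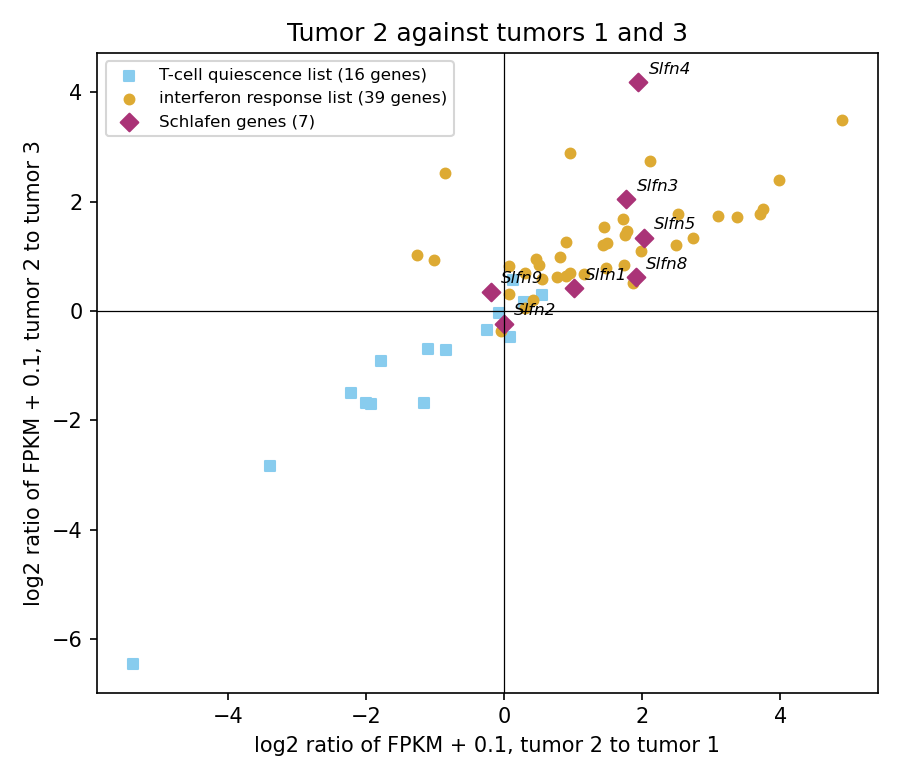
Log2 ratio of FPKM + 0.1 of tumor 2 to tumor 1 (horizontal axis) and of tumor 2 to tumor 3 (vertical axis) for the Schlafen genes (diamonds), the interferon response list (circles) and the T-cell quiescence list (squares); both axes share tumor 2. Slfn1, Slfn3, Slfn4, Slfn5 and Slfn8 lie upper right with most of the interferon response list, while Slfn2 and Slfn9 lie near 0.

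Slfn2 is tied to T-cell quiescence, and its 1.17-fold range was set beside 16 other genes of that state, of which 8 spread at least 2-fold, a share near the 43.4% over all 14733 genes. For 6 of the 16 and 0 of the 7 Schlafen genes, both other tumors had at least 2 times the FPKM of tumor 2, where 6.01% of the 14733 genes did. The list's median log2 ratio was -0.97 for tumor 2 to tumor 1 and -0.71 for tumor 2 to tumor 3. The IL-7 receptor gene Il7r had 30.7, 0.641 and 64.5 FPKM, S1pr1, which lets T-cells leave lymph nodes, had 62.2, 5.83 and 42.1 FPKM, and Klf2 had 48.6, 12.7 and 41.7 FPKM. Slfn2 had 92.5, 92.1 and 108 FPKM in the same tumors. The other 8 genes of the list, Vsir, Tob1, Tsc1, Tsc2, Btg2, Foxo3, Foxp1 and Klf4, spread less than 2-fold, as Slfn2 did, and Vsir had 30.9, 29.5 and 30.4 FPKM.

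Of 15 proliferation genes, 14 were highest in tumor 1, where 49.8% of the 14733 genes were, with Pcna at 87.95, 55.9 and 63.6 FPKM. Of 12 T-cell activation genes, 9 were highest in tumor 1, beside the same 49.8%, and 2 in tumor 2, one of which was Gzmb with 463, 702 and 134 FPKM. Since some Schlafen proteins act on tRNA, genes of tRNA cleavage and the integrated stress response were listed, and 2 of the 11 found spread at least 2-fold, a smaller share than the 43.4% over all genes. One of them was the stress factor Ddit3 with 4.84, 23.7 and 9.86 FPKM. Of the 11, 7 were highest in tumor 2, where 35.3% of the 14733 genes were, and Atf4 had 30.8, 47.5 and 30.6 FPKM.

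The 7 genes lie within 264 kb of chromosome 11, 5 on the plus and 2 on the minus strand. Unc45b, the nearest protein-coding gene before Slfn5, had 14, 3 and 0 reads. After Slfn3, the next protein-coding gene is the family member Slfn14, which had no read in any tumor, a count that allows up to 0.0427 FPKM in tumor 2. Slfnl1, a related gene on chromosome 4, likewise had no read in any tumor, and Slfn6, Slfn7-ps and Slfn10-ps were not found by symbol. Within the cluster, Slfn2 and Slfn9 kept to a range of less than 2-fold between genes that spread further.

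**Figure D5:**
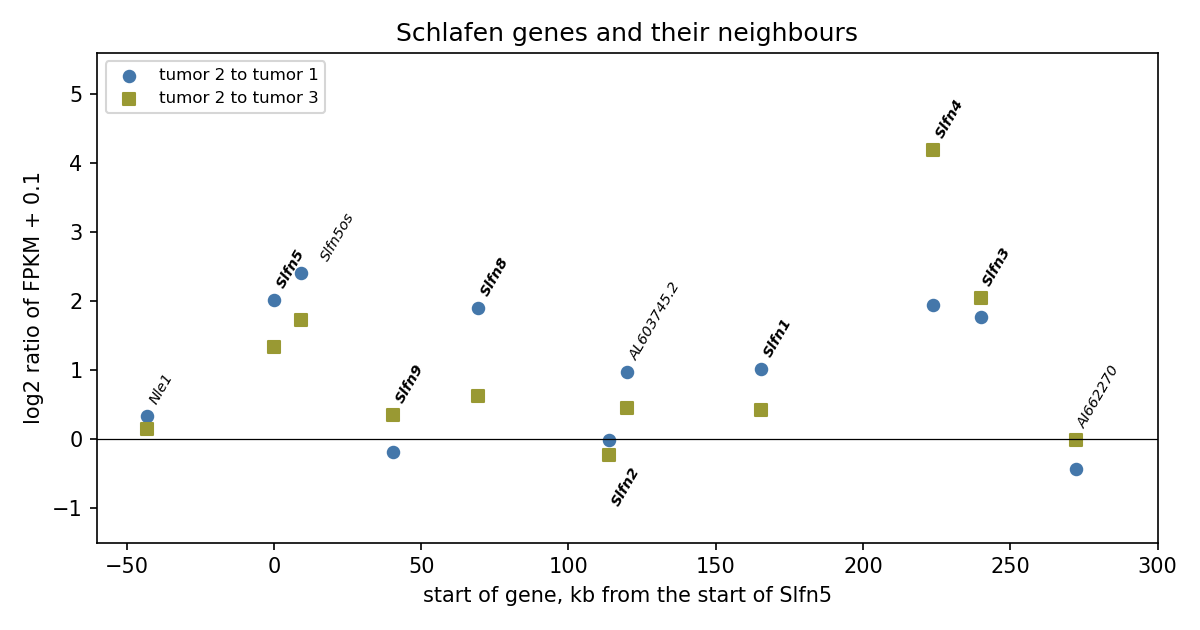
Log2 ratio of FPKM + 0.1 of tumor 2 to tumor 1 (circles) and to tumor 3 (squares) for genes with a mean of at least 0.2 FPKM around the Schlafen cluster, by the distance of their start from that of Slfn5 in kb. Slfn5, Slfn8, Slfn1, Slfn4 and Slfn3 lie above 0 for both, while Slfn2 and Slfn9 lie near it.

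The genes most like each member over the 3 tumors were taken by the root mean square difference of centred log2 values among 11196 other genes with a mean of at least 1 FPKM. The likeness rests on 3 values a gene and is a description. Slfn2 had 533 genes within 0.1, Slfn9 had 607 and Slfn1 had 142, while Slfn3 had 18, Slfn5 19, Slfn8 22 and Slfn4 none. Nearest to Slfn1 were Tyro3 and Gm45631, and nearest to Slfn2 were the T-cell surface receptor Ly9 and Coa6. For Slfn3 they were Scand1 and Aldh2, and for Slfn4 Myo7a and Atg9b. Padi2 and Gm44002 were nearest to Slfn5, Gdf11 and Iqsec1 to Slfn8, and Nsmce2 and Dazap1 to Slfn9. No member was among the nearest genes of another, and the closest members were Slfn5 and Slfn8, at 0.317.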

How the data were processed

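RNA-seq (paired-end, 150 bp) of 3 Dnmt3b+/- PTCL was analysed. According to the study's methods, trimmed reads were aligned to mm10 with STAR, and those with a mapping quality of at least 50 were quantified in SeqMonk. The deposited values are FPKM by the authors on a linear scale, 1 column per tumor. Bisulfite sequencing was not analysed here.

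A gene with 0 reads is listed at the FPKM of 0.9 read, from which the depth was taken with the exon lengths of GENCODE M21. Among genes with a read, 85.7% to 87.0% came within 0.02 of a whole read. All values of the 7 members did, within 0.0008. Exact Poisson intervals (95%) were taken on these reads, ratios had exact conditional intervals, and 3 reads were the limit that a count of 0 allows. A gene without a read entered ratios at its deposited value, which concerns 5.33% of the 14733 genes.

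With 1 group of 3 tumors no test between groups was made. Members and gene lists were chosen with earlier results of these data known. Named genes are the members, the 3 genes of each list with the highest mean (all of the receptor, regulator and quiescence lists where needed), the 2 genes most like each member and the nearest protein-coding gene on each side of the cluster. Markers without a read and exceptions to a count (Kdr, Cdh1, Ifitm3, Gbp2, Gbp3 and Ifi47) were named after their values were seen. Where a symbol was repeated, the gene with the highest mean was used. Of the lists, Ighm, Mx2 and Gcn1 were not found by symbol. Alternatives were the omission of single tumors and other scalings, thresholds, pseudocounts and backgrounds. Recovery of depth was checked on simulated data. Promoters were aligned with Biopython 1.88. Python 3.11, NumPy 2.4.6, SciPy 1.17.1, pandas 2.3.3 and matplotlib 3.10.9 were used.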

Additional observations from a re-analysis of the deposited data

How the results depend on the processing

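With a single group, conditions could not be compared, paired or unpaired, and no result came from a test; differences between members were taken within each tumor. Of 106 values under 15 alternatives, 11 could not change by construction. Of the other 95, 79 moved by less than the spread between tumors or, for counts, stayed within 1.5 times. These 79 include the gene means and the summed value with 1 tumor left out. Such a mean cannot move beyond the spread of the same 3 tumors, so the 79 are no measure of stability. With the FPKM of each tumor rescaled to sum to 1000000, the summed value of the Schlafen genes was 1341 and the means were 556 for Slfn1, 473 for Slfn2, 155 for Slfn8, 96.9 for Slfn5, 24.9 for Slfn3, 23.0 for Slfn9 and 12.9 for Slfn4, since this scaling multiplies every value by 4.47 to 5.30. Under it 2 genes were highest in tumor 1 and 0 in tumor 3. Leaving out each tumor in turn, the genes with a highest tumor of at least 2 times the lowest numbered 2 to 5, those highest in tumor 1 numbered 2 to 3, those highest in tumor 3 numbered 1 to 4, and 3 to 7 genes kept their place in the order by mean. With 2 tumors fewer values enter, and ratios that need the tumor left out had no value. The share of all genes is not given for these counts. A detection threshold of 1 FPKM left 6 genes, and a fold threshold of 3 left 4. The share of all genes at these 2 thresholds is not given either, so these counts cannot be set against it.

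With 3 tumors and no controls, the spread between mice is poorly known, and none of the values can be set against normal T-cells. Depth limits Slfn4 in tumor 3, with 20 reads, and the interferon genes. Other Schlafen values rest on 168 reads or more. Strain differences from the reference were not tested.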
